A study of Drosophila melanogaster with 2 samples.

Results

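Mitotic kinase and checkpoint genes are here 9 Drosophila genes, taken by gene name from the Ensembl annotation of the dm6 assembly: aurA, aurB, polo, BubR1, Bub3, Bub1, mad2, Mps1 and fzy. They are 9 of 13968 protein coding genes, and all 9 were found. The data are ChIP-seq region lists, which record where a protein tagged with GFP was recovered with chromatin from whole embryos of Drosophila melanogaster. There is 1 group of 2 biological replicates, numbered 2 and 3: embryos of mixed sex, 0 to 24 h old, from a transgenic line that stably carries fu2 with GFP at its C-terminal end. The line targets prg, of which fu2 is a synonym in the RefSeq gene table. The immunoprecipitation used an antibody against GFP, though 1 label field names fu2 itself, and both replicates carry the same donor number. No untagged embryos and no second condition were analysed here, so no background measured the same way stands beside the values, and nothing was compared between conditions. Since whole embryos were used, binding in few cells and weak binding in many cells cannot be told apart. The list made from both replicates together (the pooled list) holds 30000 regions with a signal value each, and the 3033 strongest of them, at 62.5 or more, are the peaks that passed the authors' irreproducible discovery rate (IDR) threshold. Each replicate has its own list of 30000 regions. The lists hold no reads, so the depth is unknown and no interval can be given for a signal value. A region under the threshold need not be a bound site, since the authors titled the lists peaks and background.

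Mitosis is run by protein kinases and held in check until every chromosome is attached to the spindle. Aurora A acts at centrosomes and the spindle, Aurora B with its partners at centromeres and later at the spindle midzone, and Polo at centrosomes, kinetochores and in cytokinesis. At an unattached kinetochore Mps1 recruits Bub1, Bub3, BubR1 and Mad2, and BubR1, Bub3 and Mad2 together bind the protein encoded by fzy, the Drosophila Cdc20. This complex keeps the anaphase-promoting complex (APC), a ubiquitin ligase, from destroying securin and cyclin B. The early embryo divides rapidly on maternally supplied products of these genes.

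The DNA just upstream of 5 of these genes is shown as examples, and listed regions overlapped it. Overlap does not set these 5 apart, since the DNA upstream of BubR1, not shown, also lay under an IDR peak. Words searched below are marked in the stretches of Bub3, mad2 and fzy, and those of aurA and Mps1 hold none marked. The stretches were read from RefSeq's Release 6 genome, with dm6 coordinates, read 5′ to 3′ on the strand of the named gene, and ending at the base before its transcript start except for Mps1. They contain no annotated exon. For aurA (chr3R:11962824-11963123, plus strand), Bub3 (chr3R:29675422-29675650, minus strand) and fzy (chr2L:16310727-16310955, plus strand) the stretch lies under an IDR peak, for aurA in part, and for mad2 (chr3L:5813094-5813337, minus strand) and Mps1 (chr3R:17670896-17671128, plus strand) under a region below the threshold, for Mps1 in part and without its summit. Capitals mark TATCGATA, the DNA replication-related element (DRE) bound by DREF, and GGTCACAC, the core of the M1BP motif, on either strand. The other 8-base words searched (below) had no match in these 5 stretches. Motif 7 was searched only in forms ending in A, so cagcactg in the mad2 stretch, which ends in G, was not counted.
aurA: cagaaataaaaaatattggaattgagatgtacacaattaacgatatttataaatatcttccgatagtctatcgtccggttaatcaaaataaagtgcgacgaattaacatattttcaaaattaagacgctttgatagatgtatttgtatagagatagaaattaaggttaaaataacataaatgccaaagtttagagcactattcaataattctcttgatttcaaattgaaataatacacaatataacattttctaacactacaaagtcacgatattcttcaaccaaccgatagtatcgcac
Bub3: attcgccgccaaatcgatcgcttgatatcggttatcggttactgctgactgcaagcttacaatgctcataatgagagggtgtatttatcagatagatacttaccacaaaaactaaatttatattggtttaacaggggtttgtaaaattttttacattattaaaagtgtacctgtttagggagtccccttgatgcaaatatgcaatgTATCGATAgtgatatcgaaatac
fzy: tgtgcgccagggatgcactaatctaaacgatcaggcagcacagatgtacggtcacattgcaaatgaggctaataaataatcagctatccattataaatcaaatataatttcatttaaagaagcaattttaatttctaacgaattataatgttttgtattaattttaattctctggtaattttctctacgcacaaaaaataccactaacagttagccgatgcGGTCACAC
mad2: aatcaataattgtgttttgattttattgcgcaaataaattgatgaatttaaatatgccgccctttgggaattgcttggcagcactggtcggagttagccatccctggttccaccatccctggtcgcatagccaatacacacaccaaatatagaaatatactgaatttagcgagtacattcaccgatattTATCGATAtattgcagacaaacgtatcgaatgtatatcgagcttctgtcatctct
Mps1: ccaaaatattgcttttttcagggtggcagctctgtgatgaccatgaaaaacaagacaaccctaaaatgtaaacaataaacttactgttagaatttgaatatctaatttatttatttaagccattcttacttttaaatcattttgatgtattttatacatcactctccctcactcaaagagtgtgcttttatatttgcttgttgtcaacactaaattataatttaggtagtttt

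Of the 9 genes, 5 had an IDR peak with its summit within 500 bp of one of their own transcript starts: aurA, BubR1, Bub3, polo and fzy. This is 55.6% of the 9, against 17.5% of all protein coding genes (2444 of 13968). The genes were proposed with results of these data in view, so the share is a description and was not tested. Of the 9 genes, 6 start head to head with another protein coding gene within 500 bp, against 26.4% of all protein coding genes. Over all protein coding genes, 36.8% of those that start head to head had an IDR peak at a start, against 10.6% of the others. Each of the 4 genes without a start peak, Mps1, mad2, Bub1 and aurB, had a region at a start that stayed under the threshold. Thus 9 of 9 had some listed region there, against 55.7% of protein coding genes. At Mps1, Bub1 and fzy the summit of the strongest one lay nearer the start of a neighbour (CG7523, Nin and cni). Over the gene body and 2 kb either side, 6 of 9 had an IDR peak, aurB being added by a peak at its neighbour, against 30.6% of protein coding genes, and 9 of 9 had a listed region, against 81.9%. The median signal value of the 5 start peaks was 125, beside 105 over the 2444 genes with one.

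**Figure D1:**
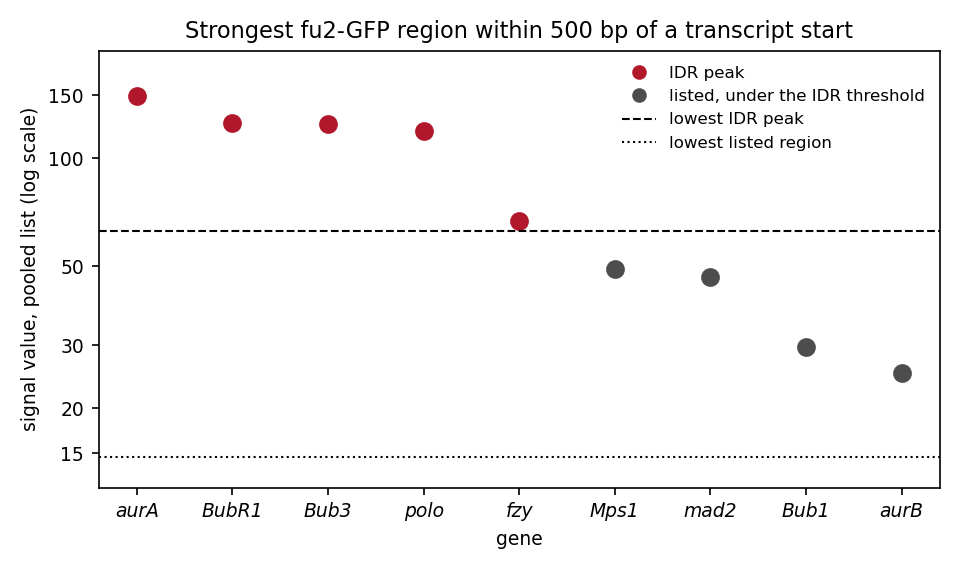
Signal value in the pooled list (log scale, no error can be given) of the strongest region with a summit within 500 bp of a start of each of the 9 genes. aurA, BubR1, Bub3 and polo lie between 119 and 149, fzy lies just above the lowest IDR peak (62.5, dashed line), and Mps1, mad2, Bub1 and aurB lie between that and the lowest listed region (14.6, dotted line).

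Among the kinase genes, the strongest region stood at aurA (FBgn0000147; 3R, 11963124 to 11964826, plus strand). Its IDR peak, at 11962870 to 11963273, had a signal value of 149 in the pooled list and rank 718, with the summit in intergenic sequence 52 bp upstream of the start. In replicate 2 the region had a signal value of 59.6 and rank 642, and in replicate 3 a signal value of 89.2 and rank 786, where signal values of different lists are not on a shared scale and only ranks can be set side by side. The summit moved little, lying 67 bp upstream in replicate 2 and 59 bp upstream in replicate 3. The gene CG3281 starts on the other strand, 267 bp from the same summit, so the peak could belong to either gene. A start region stronger than that of aurA stood at 699 protein coding genes of the 13968.

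polo (FBgn0003124; 3L, 20309654 to 20313466, plus strand) has 2 annotated starts, and its IDR peak lay between them. The peak, at 20309761 to 20310164, had a signal value of 119 and rank 1065, with its summit 84 bp upstream of the inner start and 309 bp downstream of the outer one, in the 5′ UTR of the longer transcript. The ranks in the replicates were 1180 and 1216, the closest pair among the 9 genes, differing by 1.03 times. No other gene starts within 500 bp of that summit. A second IDR peak, at 20313451 to 20313854, overlapped the last bases of polo with a signal value of 81.9 and rank 1998, but its summit lay 21 bp inside alphaSnap, a gene of vesicle fusion that starts just past the end of polo. That peak ranked 3192 in replicate 2 and 1725 in replicate 3.

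aurB and Mps1 had no IDR peak of their own. At the start of aurB (FBgn0024227; 2L, 10856797 to 10858094, minus strand) the strongest region, 70 bp upstream, had a signal value of 25.1 and rank 11962. It was listed in replicate 2 at rank 4753, 77 bp upstream, whereas the strongest region of replicate 3 near the start was a different one, 449 bp downstream of it in coding sequence, at rank 15971. The IDR peak that overlaps the 3′ end of aurB, at 10856463 to 10856866 with a signal value of 77.4 and rank 2186, had its summit 21 bp upstream of the start of Dnz1, the next gene downstream. It ranked 1863 in replicate 2 and 3255 in replicate 3. For Mps1 (FBgn0000063; 3R, 17671271 to 17673828, plus strand) the strongest region, at 17670665 to 17671068, had a signal value of 49.2 and rank 4267. Its summit was 404 bp upstream of Mps1 but only 28 bp inside CG7523, which starts on the other strand, and its ranks were 4888 and 4427. Its −log10 q-value was 3.95, the highest in the pooled list, a value that 4479 regions share, so this column did not set it apart from IDR peaks.

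**Figure D2:**
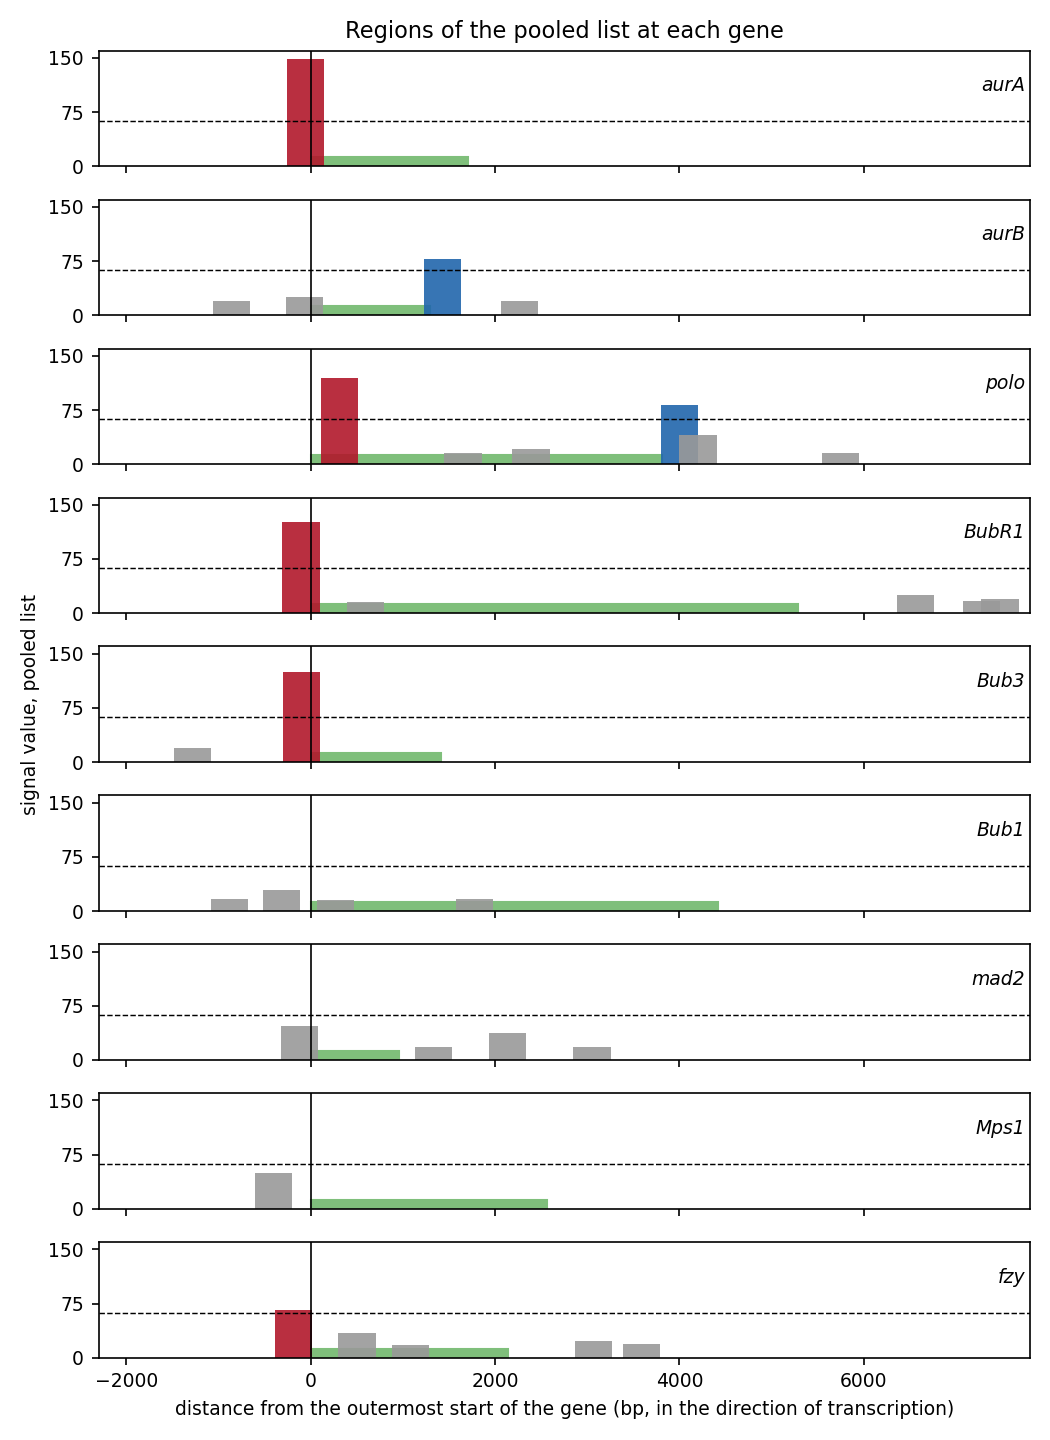
Regions of the pooled list over each gene and 2 kb either side, by distance from the outermost start (bp, in the direction of transcription); bar height is the signal value, bar width the region, and the green strip the gene body. Red bars are IDR peaks within 500 bp of a start of the gene, blue bars IDR peaks elsewhere (at Dnz1 past aurB and at alphaSnap past polo), grey bars regions under the threshold, and the dashed line the lowest IDR peak (62.5).

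Among the checkpoint genes, BubR1 and Bub3 had IDR peaks of nearly the same signal value, and Bub1 and mad2 had none. BubR1 (FBgn0263855; 2R, 5969099 to 5974385, minus strand) encodes the checkpoint protein that binds and inhibits Fzy. Its IDR peak, at 5974289 to 5974692, had a signal value of 126 and rank 962 and an intergenic summit 106 bp upstream of the only start within 500 bp. Its signal value was 34.7 in replicate 2 and 91.7 in replicate 3, with ranks of 1725 and 751, a ratio of 2.30 between the ranks. This was the widest gap between replicates among the 5 genes with a start peak. Of the 401 IDR peaks ranked 700 to 1100 with a region in both replicates, the median ratio was 1.39, the upper quartile 1.73 and the 90th percentile 2.25. For these peaks the best rank of any overlapping region was taken, so some beside a stronger peak carry its ranks. Under that rule BubR1 has the same ranks as above. The summit itself stayed in place, 107 bp upstream in replicate 2 and 104 bp in replicate 3.

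Bub3 (FBgn0025457; 3R, 29674007 to 29675421, minus strand) encodes the WD-repeat protein that carries Bub1 and BubR1 to kinetochores. Its IDR peak, at 29675322 to 29675725, had a signal value of 125 and rank 979. The summit lay 103 bp upstream of Bub3 and 127 bp upstream of Cap-D2, which starts on the other strand and encodes a condensin subunit, so that 2 genes of mitosis share the peak. Replicate 2 gave a signal value of 53.8 at rank 777 and replicate 3 a signal value of 67.8 at rank 1289. Replicate 2 thus ranked Bub3 well above BubR1, and replicate 3 ranked them the other way round, so their order is not settled by these data.

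mad2 (FBgn0035640; 3L, 5812135 to 5813093, minus strand) encodes the checkpoint protein that changes shape when it binds Cdc20. Its region, at 5813015 to 5813418, had a signal value of 46.7 and rank 4581, with the summit 124 bp upstream of the start and no other start within 500 bp. Replicate 2 listed it at rank 3365, 137 bp upstream, and replicate 3 listed a region at rank 6955 with its summit 2 bp upstream and a weaker one at rank 15480, 201 bp upstream. Neither replicate placed it among its 3033 strongest. Another region within 2 kb of mad2, with a signal value of 37.6, had its summit 18 bp upstream of kri and 24 bp upstream of S6k, which start back to back.

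Bub1 (FBgn0031696; 2L, 5278865 to 5283283, plus strand) encodes the kinetochore kinase that marks centromeres for protection. Its regions at the start were weak and differed between replicates. In the pooled list the strongest had a signal value of 29.8 and rank 8928, with its summit exactly at the start of Nin on the other strand and 317 bp upstream of Bub1, and a second had a signal value of 15.6 at rank 27054, 77 bp downstream of the inner start. Replicate 2 ranked the region 106 bp downstream of the inner start first (6507) and the one toward Nin next (8363). Replicate 3 listed the latter at rank 8416, 353 bp upstream, and nothing within 500 bp downstream of either start.

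fzy (FBgn0001086; 2L, 16310956 to 16313097, plus strand), which encodes the APC activator that the checkpoint holds back, lay just inside the threshold. Its IDR peak, at 16310567 to 16310970, had a signal value of 66.8 and rank 2765, which is 1.07 times the lowest IDR signal value. The summit lay 187 bp upstream of fzy and 43 bp upstream of cni, which starts on the other strand and encodes a cargo receptor of the secretory pathway. Replicate 2 gave a signal value of 30.1 at rank 2169 and replicate 3 a signal value of 37.9 at rank 3354, outside the 3033 strongest of that replicate. On the other side of the threshold the nearest of the 9 genes was Mps1, at 49.2.

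Over both replicates, aurA, polo, BubR1 and Bub3 were among the 3033 strongest regions in each, fzy in replicate 2 only, and Mps1, mad2, Bub1 and aurB in neither. With the strongest 3033 regions of each replicate taken alone, 5 of 9 genes had a start region in replicate 2, against 17.3% of protein coding genes, and 4 of 9 in replicate 3, against 17.2%. The order of the genes by replicate rank was aurA, Bub3, polo, BubR1 in replicate 2 and BubR1, aurA, polo, Bub3 in replicate 3. In both replicates these 4 ranked above fzy, and fzy above the other 4. This order was not tested. By ranks in both replicates, the genes most like aurA were Mon1 and mRpS2, which share a peak with a signal value of 152 and ranks of 643 and 768, and AsnS, with 156 and ranks of 613 and 778. The summed differences in log2 rank were 0.04, 0.04 and 0.08.

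**Figure D3:**
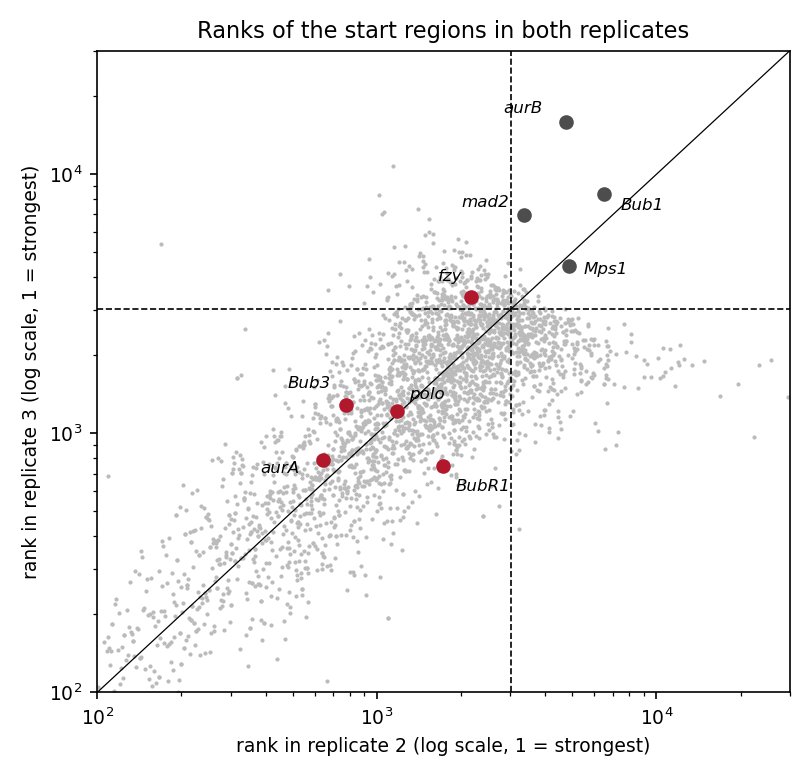
Rank in replicate 2 against rank in replicate 3 (both log scales, ranks from 100 on) of the strongest region within 500 bp of a start of each of the 9 genes, red with an IDR peak and dark grey without, over the IDR peaks found in both replicates (light grey); the line marks equal ranks and the dashed lines rank 3033. aurA, Bub3, polo and BubR1 lie below both dashed lines, fzy below that of replicate 2 only, and the other 4 beyond both.

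The summits of the 5 start peaks lay 52, 84, 103, 106 and 187 bp upstream of the nearest start of their own gene. Over the 1868 IDR peaks within 500 bp of a start of a protein coding gene, 81.9% had the summit upstream of the nearest such start. Of the 9 genes, 6 start head to head with another protein coding gene within 500 bp: aurA with CG3281 (319 bp between starts), aurB with Stam (442 bp), Bub3 with Cap-D2 (230 bp), Bub1 with Nin (317 bp), Mps1 with CG7523 (376 bp) and fzy with cni (230 bp). An IDR peak stood at 3 of these 6 genes. Over all protein coding genes, 26.4% start head to head in this sense, and 36.8% of those had an IDR peak at a start against 10.6% of the others. The remaining genes are polo and BubR1, with a peak that no other gene start shares, and mad2, whose region no other start shares either. Genes with and without a peak thus occurred in both arrangements, and a link between arrangement and peaks was not tested.

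Away from gene starts the regions were weak. Of the 32 pooled regions over the 9 genes and 2 kb either side, 18 (56.2%) had a summit within 500 bp of some gene start, among them 7 of 7 IDR peaks. Over the whole pooled list 33.8% of regions did, and over all IDR peaks 63.7%. Each window at the 9 genes holds a start of its own gene by construction. A higher share there is therefore not a result about these genes. The other 14 ranked between 7174 and 28721, with 6 summits inside polo, BubR1, Bub1 or fzy and 8 outside the 9 genes. The strongest of these, with a signal value of 34.4, lay in an intron of fzy 503 bp from its start, just past the distance used here, and was also listed in replicate 2 (rank 8350, 513 bp) and replicate 3 (rank 11338, 506 bp).

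Known promoter words stood close to the starts of several of the 9 genes. The DRE occurred in the 300 bases around the start (250 before and 50 from it) of BubR1, Bub3 and mad2, centred 29, 19 and 51 bp upstream, against 9.36% of all protein coding promoters of the same length. GGTCACAC occurred at aurB, Mps1 and fzy, centred 3 and 10 bp downstream and 4 bp upstream of the start, against 7.69%. Core promoter motif 7, searched as CAGCNCTA and CATCNCTA, occurred at BubR1 and Bub3, centred 17 bp downstream and 238 bp upstream, against 9.73%. The match of Bub3 is thus not close to its start and lies past the start of Cap-D2, 230 bp away. Forms of motif 7 that end in a base other than A were not searched, here or below. The word CAACACTG and the E2F words TTTCCCGC, TTTCGCGC, TTTGCCGC and TTTGGCGC occurred at none of the 9, against 3.48% and 6.41%. The shorter TTTGAA, known as the cell cycle genes homology region, occurred at 5 of 9, against 40.7%. All words were searched on both strands, and CAACACTG and the motif 7 words cannot match the same bases in the same frame. Within 50 bp of the summit of the strongest start region none of the 8-base words, as searched, occurred at any of the 9 genes. Over the 3033 IDR summits each occurred at 1.65% to 4.58%. The shorter TTTGAA did occur there at 2 of the 9 genes, aurA and polo, against 16.5% of IDR summits. Within 100 bp of the summit, a distance added after the data were seen, 5 of the 9 genes (aurB, BubR1, Bub3, mad2 and fzy) had a DRE, CAACACTG, motif 7 or M1BP word. At that distance 19.9% of IDR summits had one, as did 25.3% of the strongest start regions of the 7784 protein coding genes with any; within 50 bp the shares were 11.9% and 15.8%. In the printed stretches the DRE of Bub3 is 84 bp from the peak summit and that of mad2 73 bp, and the GGTCACAC of fzy is 183 bp away. A match is only a match of letters. The DNA within 50 bp of the summit was rich in A and T at aurA (27.7% GC) and Bub3 (25.7%), and had 39.6% GC at BubR1 and 43.6% at polo and fzy. At the 4 genes with no start peak it was 25.7% at aurB, 38.6% at Mps1, 47.5% at mad2 and 50.5% at Bub1, beside a median of 36.6% over IDR peaks and 44.6% over the pooled list.

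Beyond the 9 genes, 54 other genes of the same processes were grouped by role, and 12 of them (22.2%) had an IDR peak at a start, beside the 17.5% of all protein coding genes. The median signal value of these 12 peaks was 93.1. None of the 3 partners of Aurora B had one: Incenp, the scaffold of the complex, came closest with a signal value of 57.9 at rank 3378 (5737 in replicate 2 and 2494 in replicate 3), and borr and Det were at 14.9 and 16.2. None of the 5 partners of the checkpoint at the kinetochore had one either, with Mad1, the anchor of Mad2, highest at 44.1 (rank 20009 in replicate 2 and 3821 in replicate 3). The remaining 4 of these 5 were rod (36.8), Zw10 (32.2), Zwilch (17.8) and Spindly (17.5). With so few genes per list, and a peak at 17.5% of all protein coding genes, 0 peaks cannot set these lists apart.

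At the kinetochore and centromere, 2 of 13 genes had a peak, Spc25 and Cenp-C (15.4%, against 17.5% of all protein coding genes). Spc25, of the Ndc80 complex, had 118 (ranks 1013 and 1084 in replicates 2 and 3), with grsm starting within 500 bp of the summit. Cenp-C, which links the centromere to the outer kinetochore, had 87.8 (ranks 2496 and 1810), with asRNA:CR44291 starting within 500 bp. Of the APC subunits and its other activators, 3 of 12 had a peak (25.0%). They were Cdc16 (99.3, ranks 1509 and 1407), Cdc27 (66.6, ranks 2108 and 3458) and fzr (92.4). The summit at Cdc16 lay within 500 bp of a start of orb. fzr encodes the activator of the APC in late mitosis and G1. The peak of fzr lay 485 bp upstream of a start, near the distance limit, and the start region of replicate 2 had rank 9523 against 2037 in replicate 3. Among targets of the APC, separase components and cohesin protection 1 of 7 had a peak (14.3%), mei-S332, the Drosophila shugoshin (121, ranks 1996 and 822). Its summit lay 306 bp upstream, and Vrp1 starts within 500 bp of it.

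Entry kinases, phosphatases and regulators of Polo and Aurora A had the most, 6 of 14 (42.9%, against 17.5% of all protein coding genes). They were led by mts, the catalytic subunit of the phosphatase PP2A (136, ranks 1056 and 695), and its regulatory subunits tws (101, ranks 1465 and 1357) and wdb (93.8, ranks 2163 and 1470). Cdk1, the kinase that starts mitosis, had 77.8 (ranks 1817 and 2298), with its summit 224 bp upstream and mRpS7 starting within 500 bp of the same summit. The summit at mts was 399 bp upstream of it and within 500 bp of a start of Rack1. The remaining 2 of these 6 were gwl (68.2), which encodes the Greatwall kinase, and mei-38 (64.1). The peak of gwl lay 367 bp from its start, beside that of PGS1, and that of mei-38 within 500 bp of the start of Rab27. With a distance of 200 bp, Cdk1 and mts had no region left, and the region of gwl had rank 8688, under the threshold. The 9 kinase and checkpoint genes and these lists were chosen with earlier results of these data known, and were not tested against each other.

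**Figure D4:**
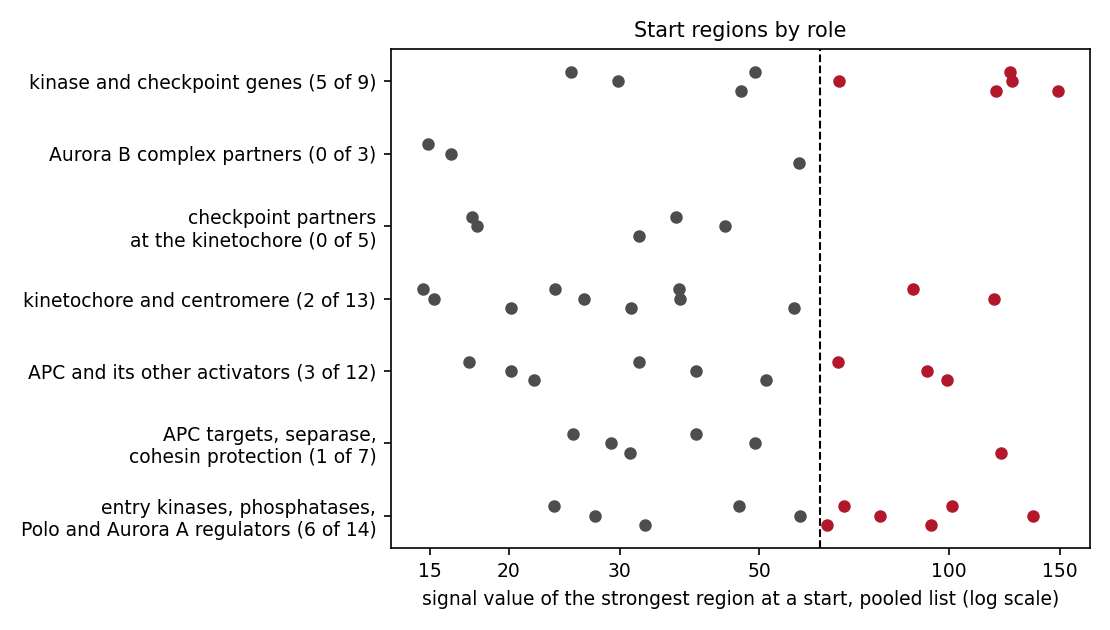
Signal value in the pooled list (log scale) of the strongest region within 500 bp of a start, 1 point per gene, by role; red points are IDR peaks, dark grey points regions under the threshold, the dashed line the lowest IDR peak (62.5), and the counts are genes with an IDR peak of all in the list. Genes with no listed region at a start have no point; the Aurora B partners and the kinetochore partners of the checkpoint have no red point.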

How the data were processed

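The authors deposited region lists in narrowPeak format without a header. On dm6, per the file manifests, each replicate's list derives from its own alignment and 1 further input, which the manifests also name for a control normalized signal. The pooled list derives from both alignments and such an input, and the IDR peaks from these 3 lists. Aligner, peak caller and IDR threshold: not given in the sources used here. Each region's signal value, its −log10 q-value and its summit offset in bp are the authors' deposited values. Per the labels, chromatin was sonicated to 200 to 800 bp. The dm3 lists were not used here.

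Regions were ranked by signal value within each list and set to 1-based positions. Transcript starts were those of Ensembl 115 (BDGP 6.54), leaving out transposable elements, and bases were read from RefSeq's Release 6 genome. A region was at a start when its summit was within 500 bp of a transcript start. Overlap meant at least 1 bp. The genes named beyond the 9 are those with a start within 500 bp of the summit of an IDR peak at the 9, up to 4 genes with the strongest peaks per list and the 3 most like aurA, and any others were chosen after their values were seen. The 54 listed genes were found by symbol or RefSeq synonym (lmg as lmgA). The members, lists and words were chosen with earlier results of these data known. No statistical test was run. Python 3.11.15 and matplotlib 3.10.9 were used, and overlap and word searches were tested on simulated data.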

Additional observations from a re-analysis of the deposited data

How the results depend on the processing

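The count of 5 genes with an IDR peak at a start was the same with a promoter distance of 200 or 1000 bp, with overlap in place of the summit and with protein coding transcripts alone. It was 4 among the 1516 strongest IDR peaks, where fzy dropped out, and 4 to 5 when 1 replicate was left out, again by fzy. It was 9 when the whole pooled list was used, which counts regions under the threshold. Over the gene body alone the count with an IDR peak was still 6, and that with any listed region was 8 in place of 9; with 5 kb either side both were unchanged. Among alternatives, the share of protein coding genes was computed for replicate 2 (17.3%), replicate 3 (17.2%) and the whole pooled list (55.7%) only. At the other settings an unchanged count need not be an unchanged contrast. The count of listed pathway genes moved from 12 to 7 at 200 bp and to 5 among the 1516 strongest IDR peaks, and was 12 to 14 with 1 replicate left out; for the counts with fewer peaks or a shorter distance the construction of the alternative lowers the number. Ranks of 21 single genes under 4 alternatives (200 or 1000 bp, or 1 replicate alone) make 84 cases. In 5 no region was left, all at 200 bp: Mps1 and 4 genes with an IDR peak, fzr, mei-S332, Cdk1 and mts. Of the other 79, 74 stayed on their side of rank 3033. The remaining 5 were fzy (3354) and Cdc27 (3458) in replicate 3 alone, fzr (9523) and mei-38 (4739) in replicate 2 alone and gwl (8688) at 200 bp. The count of genes in the strongest 3033 of both replicates stayed at 4 at 200 bp, and the genes with a DRE, CAACACTG, motif 7 or M1BP word went from 0 within 50 bp of the summit to 5 within 100 bp (IDR summits from 11.9% to 19.9%), both alternatives added after the data were seen. No paired analysis was possible because there is 1 group and no test. Depth is unknown, so a weak region cannot be told from an absent one.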
